A study of Drosophila melanogaster with 36 samples.

Results

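Genes of Drosophila melanogaster that carry no name beyond a computed gene number, written CG plus digits, were examined for a transient increase after heat. A gene belonged to the set when its mean log2 intensity over the 12 arrays at 0.25, 1 and 2 h after heat was at least 0.6 above the mean of the 4 untreated arrays, when its mean over the 12 arrays at 16, 32 and 64 h was less than 0.5 above untreated, and when its mean at 0.25 to 2 h was at least 5, an intensity of 32. Of the 4482 CG-numbered genes with a probe set of their own, 22 met these limits (0.491%), against 25 of 6361 genes with a name (0.393%). The members were thus chosen by their measured log2 intensities, and every difference from untreated flies below, at any time, describes genes picked partly for their untreated values and was not tested. The intensities of whole adult female flies came from 36 arrays. The flies came from a nonselected line or from one selected for heat resistance. Samples of both were taken without treatment and at 8 times (0.25, 1, 2, 4, 8, 16, 32 and 64 h) following a stress of 1 h at 36 °C. Each of the 18 groups thus formed holds 2 bioreplicates. Neither the number of selected populations nor the pooling, age and collection hour of the flies is given in the labels, so p-values measure the spread between these arrays. All times share the same 4 untreated arrays, and an effect of heat and one of the hour or age at sampling cannot be told apart. In whole flies, fewer cells of a type and less RNA per cell cannot be told apart either.

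In insects as in other animals, heat activates the heat shock transcription factor, which switches on genes of molecular chaperones within minutes. Chaperones of the Hsp70 family work with J-domain proteins, which deliver unfolded clients and stimulate ATP hydrolysis, and with BAG-domain proteins, which release the nucleotide. A second stress programme, run by the factor cnc and its inhibitor Keap1, controls enzymes that detoxify reactive compounds, such as glutathione S-transferases and reductases of carbonyl compounds. For some of the 22 genes a domain or protein family is given here, and a link to either system was not tested. CG7130 encodes a J-domain protein and CG7945 a BAG-domain protein. CG12224 belongs to the aldo-keto reductases, CG2065 to the short-chain dehydrogenases, CG5966 to the lipases and CG5246 to the trypsin-like serine proteases. CG11825 carries a domain of hypoxia-induced mitochondrial proteins. No role is given here for the other 15.

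The array label of whole females was checked with marker lists. The 12 measured yolk, chorion and vitelline membrane genes summed to 15.00 to 17.40 on the log2 scale in all arrays. Their median was less steady. It ran from 5.70 in selected 64 h replicate 1, where 7 of the 12 reached an intensity of 32, to 13.81 in nonselected untreated replicate 2. The sum thus does not show that each of these genes kept its level. The 17 measured male reproductive genes were all under an intensity of 32 in 35 arrays, where they summed to 6.88 to 7.48 log2 units. In selected 32 h replicate 2, 14 of them reached 32 and the sum was 11.32. That array enters the 16 to 64 h mean. None of the 22 genes had its highest value there, and all 22 kept a 16 to 64 h mean below the limit without it. In that array 10 of 22 lay above the other 3 arrays at 32 h. The share of all probe sets that did so was not counted, so nothing is read from how the array ranked.

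The mean change at 0.25 to 2 h ran from 0.62 log2 units in CG4619 to 2.01 in CG6785, with a median of 0.99 over the 22 genes and of 0.03 over all 10843 measured genes. The median change at 16 to 64 h was -0.10. In 12 of the 22 genes all 12 arrays at 0.25 to 2 h lay above all 4 untreated arrays, which held for 1.06% of the 8199 tested probe sets. At single times all 4 arrays lay above all untreated arrays in 12 genes at 0.25 h (2.09% of tested probe sets), 20 at 1 h (4.05%), 19 at 2 h (3.85%), 2 at 16 h (6%), 1 at 32 h (3.92%) and 1 at 64 h (5.46%). Because the rule used these times, nothing is read from the counts.

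**Figure D1:**
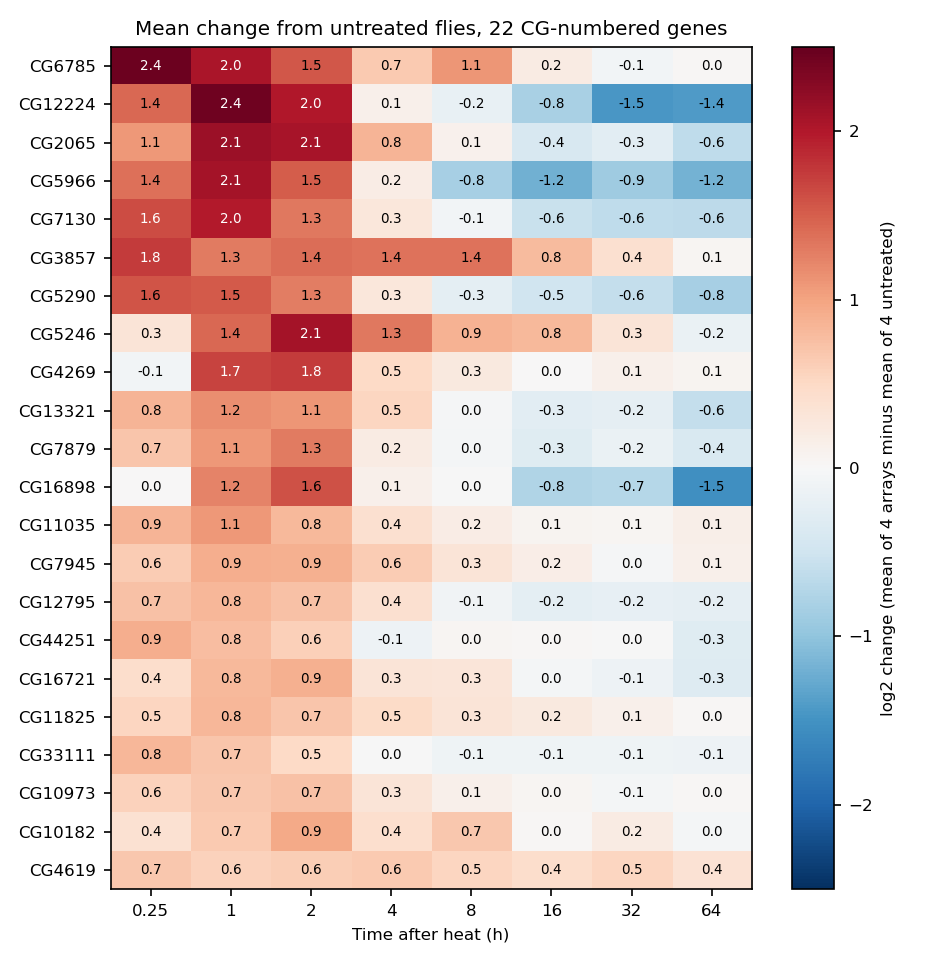
Mean log2 change from untreated flies (colour and printed value, 4 arrays minus 4 arrays) for the 22 CG-numbered genes in rows, ordered by their change at 0.25 to 2 h, at the 8 times after heat in columns. The first 3 columns, the last 3 and the untreated arrays behind every column were used to choose the genes. The columns at 4 and 8 h show changes from -0.12 to 1.35 and from -0.83 to 1.35.

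CG7130, the J-domain gene, stood at 6.79 and 6.95 log2 units in the 2 untreated nonselected arrays and at 6.73 and 6.51 in the selected ones. At 1 h it stood at 8.85, 8.63, 8.63 and 8.83 in the same order. Its 12 arrays at 0.25 to 2 h ran from 7.81 to 8.85 with a median of 8.42, so they did not overlap the untreated arrays, and the mean was 3.12-fold the untreated one. At 4 h it stood at 7.03 ± 0.05 (SD, n = 4), and at 16 to 64 h its mean differed from untreated by -0.61. For CG7945 the untreated arrays lay between 7.97 and 8.25 and the 12 early arrays between 8.59 and 9.23, with a median of 8.94. The mean was 1.76-fold the untreated one. This BAG-domain transcript stood at 8.99 at 2 h and 8.74 ± 0.07 at 4 h (SD, n = 4), and all 4 arrays at 4 h were above all untreated arrays. A second probe set of CG7945 lay at 2.81 in untreated flies and at 2.80 at 0.25 to 2 h, too dim to bear on the change.

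CG12224, the aldo-keto reductase gene, and CG2065, the short-chain dehydrogenase gene, stood among the 3 largest early changes. CG12224 had 6.72 and 7.26 log2 units in untreated nonselected flies and 6.94 and 6.89 in untreated selected flies. It stood at 9.64, 9.40, 9.24 and 9.21 at 1 h in the same order, and the early arrays, from 8.27 to 10.04 with a median of 8.92, did not overlap the untreated ones. The mean was 3.87-fold the untreated one. By 4 h it was at 7.88 and 7.47 in nonselected and 6.83 and 6.16 in selected flies, and at 16 to 64 h its mean differed from untreated by -1.23 (-1.15 without the array with male transcripts). The genes directly on either side of CG12224, CG18547 and CG3397, are also aldo-keto reductase genes. Their changes at 0.25 to 2 h were 0.05 and 0.15, so of the 3 neighbouring genes CG12224 alone met the rule.

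CG2065 is flanked by short-chain dehydrogenase genes too, CG2070 and Rdh1, with early changes of -0.31 and -0.02. CG2065 itself lay between 4.86 and 5.05 in the 4 untreated arrays, 3 of which were under an intensity of 32, and between 5.0 and 7.71 at 0.25 to 2 h. With values under 32 set to 32, its mean was at least 3.23-fold the untreated one. The lines stood apart for this gene, as described further on.

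CG5966, the lipase gene, was variable before heat, at 8.74 and 7.07 in nonselected and 7.76 and 7.35 in selected flies. At 1 h it stood at 10.84, 9.25, 9.60 and 9.55, and the groups overlapped at 0.25 and 2 h. Its mean at 0.25 to 2 h was 3.15-fold the untreated one, and at 8 h it already differed from untreated by -0.83. CG5246, the protease gene, had 1 array far above the others. At 2 h selected replicate 1 was at 9.86, while the other 3 arrays lay at 6.87, 5.88 and 6.87 against 5.11 to 5.46 in untreated flies.

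CG6785, whose role is not given here, had the largest early change on the values as deposited, but its place among the 22 genes is not settled because its untreated signal is dim. Untreated arrays stood at 3.42, 3.54, 3.44 and 3.59, all under an intensity of 32. At 0.25 h the values were 5.93 and 5.70 in nonselected and 6.36 and 5.79 in selected flies, all above every untreated array. With values under 32 set to 32, the mean at 0.25 to 2 h is at least 1.45-fold higher, below the 1.54-fold of CG4619. A second probe set of the gene lay at 1.35 in untreated flies and 1.36 at 0.25 to 2 h, too dim to bear on the change. CG4269 and CG10182 also started under 32 in all 4 untreated arrays. With all values under 32 set to 32, these 3 genes no longer met the rule and the other 19 did.

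**Figure D2:**
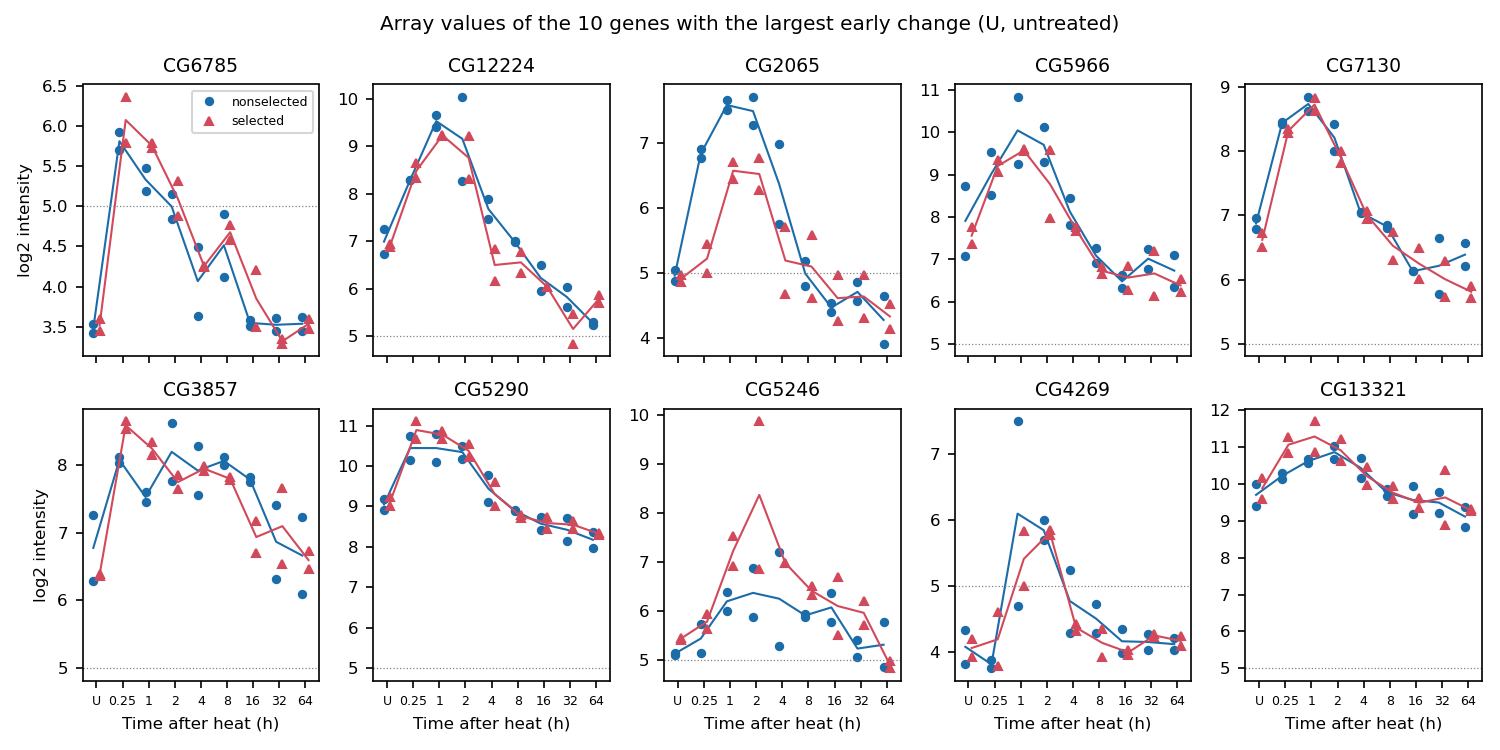
Log2 intensity (y axis) in each of the 36 arrays for the 10 genes with the largest early change, against untreated flies (U) and the times after heat in hours (x axis, ordered, not to scale). Circles are nonselected and triangles selected arrays, lines join the means of 2 replicates, and the dotted line marks a log2 intensity of 5. CG2065 stands lower in selected flies at 0.25 to 2 h, and CG4269 is near its untreated level at 0.25 h.

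Among the other genes, CG5290 was at 8.92 to 9.24 untreated and 10.10 to 11.10 at 0.25 to 2 h, with no overlap and a mean 2.75-fold the untreated one. CG13321 lay at 9.41 to 10.17 untreated and 10.14 to 11.71 early, a mean 2.05-fold higher with a small overlap. CG7879 (2.03-fold), CG16898 (1.93-fold) and CG11035 (1.89-fold) followed. CG12795, CG44251, CG16721, CG11825, CG33111, CG10973 and CG4619 lay between 1.54-fold and 1.70-fold. The least of these, CG4619, was at 6.82 to 7.23 untreated and 7.46 to 7.93 early, with no overlap, while CG12795, CG11825 and CG10973 overlapped. For CG33111 the probe set used changed by 0.67 log2 units. Its other probe sets, with early means of 4.68 and 3.40, changed by 0.20 and 0.035.

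The limits of the rule cut through a continuous range. Just inside the early limit lay CG4619 (0.62), CG10182 (0.66) and CG10973 (0.66), and just outside lay CG12643 (0.58), CG31898 (0.57) and CG6511 (0.54). The late limit separated CG5246 (0.31), CG3857 (0.41) and CG4619 (0.44) from CG34376, the 1 gene kept out by it, which stood 0.78 above untreated early and 0.67 late. The level limit separated CG10182 (5.10), CG4269 (5.19) and CG6785 (5.51) from CG13227 (4.06), the 1 gene kept out by it. When each of the 28 arrays that the rule uses was left out in turn, 17 of the 22 genes always met it. CG3857 did not without nonselected untreated replicate 1, where its late change became 0.64. CG4269 did not without nonselected 1 h replicate 1, with an early mean of 4.98. An early change under 0.6 kept out CG10973 without selected untreated replicate 2 (0.55) and CG4619 without that array (0.53) or nonselected 1 h replicate 2 (0.5997). CG10182 was kept out without nonselected untreated replicate 2 (0.59) or either selected 2 h array (0.597 and 0.52). In the replicate 1 arrays alone 18 of the 22 genes met the rule, in the replicate 2 arrays alone 17, and in both 13. The nonselected line alone gave 18 of the 22 and the selected line alone 20, and 17 met it in both.

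The rule takes the mean of the 12 arrays at 0.25, 1 and 2 h and not the differences between these times, which were tested on the same arrays. The highest mean lay at 0.25 h in 6 genes, at 1 h in 9 and at 2 h in 7. Means at 0.25 h were already at least 80% of the average early change in 12 genes and under 50% in 3, CG5246, CG4269 and CG16898. In a moderated F-test over the 3 times (limma, adjusted over 8199 probe sets), 1 of the 22 genes differed, against 0.402% of all tested probe sets, and 9 of 22 had an unadjusted p under 0.05, as had 310 of the 8199 probe sets. The contrast of 2 h minus 0.25 h gave 2 of 22, against 0.512% of all, 1 higher and 1 lower (0.39% and 0.122% of all). Because the genes were chosen by the same 12 arrays, no excess over all probe sets is read from these counts.

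On the values as deposited, CG4269 was higher at 2 h than at 0.25 h. At 0.25 h it stood at 3.87 and 3.75 in nonselected and 4.60 and 3.78 in selected flies, within or close to the untreated range of 3.82 to 4.34. At 2 h the 4 arrays stood at 5.99, 5.69, 5.85 and 5.76. The log2 difference was 1.82 (SE 0.37, adjusted p = 0.018, limma), and the F-test over the 3 times gave adjusted p = 0.0225. All arrays at 0.25 h were under an intensity of 32, and with values under 32 set to 32 the difference became 0.82 (adjusted p = 0.506) and neither call was made. Both CG4269 and CG6785 passed the filter on dim probe sets through early arrays, and without that filter their calls of 2 h minus 0.25 h had adjusted p = 0.029 and 0.0379 (limma). CG16898, at 7.29, 7.16, 8.65 and 7.44 at 0.25 h and 9.05, 8.87, 9.37 and 9.55 at 2 h, had a similar shape at a higher level. Its difference of 1.58 (SE 0.41) did not pass (adjusted p = 0.0953), and nor did that of CG5246 (1.75, SE 0.46, adjusted p = 0.1). Both passed when the replicate number was added as a block (adjusted p = 0.00182 and 0.018), as did CG7879 (0.59, adjusted p = 0.135 without and 0.014 with the block). CG2065, at 0.98 (adjusted p = 0.15), passed with values under 32 set to 32 (adjusted p = 0.0254).

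CG6785 went the other way. From 5.70 to 6.36 at 0.25 h it went to 5.16, 4.84, 4.87 and 5.31 at 2 h. The fall was 0.90 log2 units (log2 difference -0.90, SE 0.19, adjusted p = 0.0249, limma). CG33111, with its highest mean at 0.25 h too, stood at -0.34 (SE 0.14, adjusted p = 0.737). The call of CG4269 was lost without any single array at 0.25 or 2 h other than selected 0.25 h replicate 1 (adjusted p up to 0.159). That of CG6785 was lost without any nonselected array at 0.25 or 2 h, or without selected replicate 1 at either time (adjusted p up to 0.14).

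**Figure D3:**
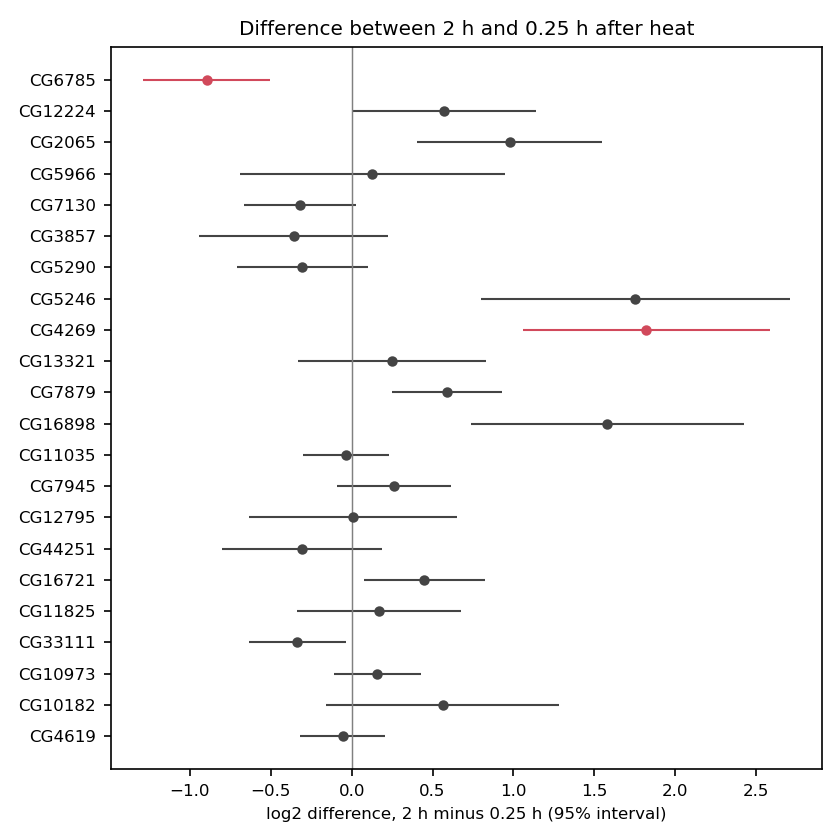
Log2 difference between 2 h and 0.25 h after heat (x axis) for each of the 22 genes (y axis), with the 95% interval of the limma fit. Red marks the 2 genes past an adjusted p of 0.05, CG4269 at 1.82 and CG6785 at -0.90, and 14 of 22 points lie above 0.

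The decline after 2 h differed among the genes. As a median over the 22, the change from untreated stood at 0.78 at 0.25 h, 1.13 at 1 h, 1.19 at 2 h, 0.40 at 4 h and 0.11 at 8 h. At 4 h 5 of the 22 genes had all 4 arrays above all untreated arrays (2.67% of tested probe sets), and at 8 h 6 had (5.89%). The rule used the untreated arrays, so nothing is read from these counts. Of their average early change, 9 genes still held at least 50% at 4 h and 5 at 8 h, while 9 were at or under the untreated mean at 8 h. CG3857 was the most lasting of the larger changes. It stood at 7.26, 6.29, 6.36 and 6.4 untreated, at 8.04, 8.11, 8.64 and 8.52 at 0.25 h, and still at 8.11, 8.00, 7.77 and 7.82 at 8 h, a mean 1.35 above untreated. CG4619 held 0.54 at 8 h and 0.36 at 64 h. CG44251 and CG33111, at -0.12 and -0.01 at 4 h, were the 2 genes with a mean no higher than untreated at that time.

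The step from 4 to 8 h, whose arrays the rule did not use, was tested in the same fit. The difference was below 0 in 19 of 22 genes, with a median of -0.24 against -0.03 over all tested probe sets. Over all tested probe sets the difference was above 0 in 3593 of 8199. The rule chose genes that were high early and no longer high late, so a fall in between is favoured by that choice. Nothing is therefore read from the direction of the step. None of the 22 passed (limma), against 0.293% of all tested probe sets (0.268% higher and 0.0244% lower), and 5 had an unadjusted p under 0.05, as had 498 of the 8199 probe sets. The most negative difference was that of CG5966, from 8.45, 7.81, 7.66 and 7.75 at 4 h to 7.27, 6.91, 6.81 and 6.64 at 8 h (-1.01, 95% interval -1.83 to -0.19, adjusted p = 0.539). CG6785 differed in sign, at 0.43 (interval 0.04 to 0.83, adjusted p = 0.669). Its 4 arrays stood at 4.90, 4.12, 4.77 and 4.59 at 8 h against 4.50, 3.64, 4.25 and 4.26 at 4 h, all under an intensity of 32.

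At 16 to 64 h the genes spread out. The mean lay below untreated in 12 of 22 genes and within 0.2 of it in 10. It was at least 0.6 below in 5, namely CG12224 (-1.23), CG5966 (-1.09), CG16898 (-1.0), CG5290 (-0.64) and CG7130 (-0.61). At 64 h CG16898 stood at 5.93 and 5.62 in nonselected and 7.26 and 5.54 in selected flies, against 7.06 to 8.28 untreated. CG12224 was at 5.30, 5.24, 5.87 and 5.71 at 64 h, all under its lowest untreated value of 6.72.

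The comparison of lines was also not used by the rule, which averages over both. Over the 9 conditions, CG2065 and CG10973 were lower in selected flies, 2 of 22 genes against 6.06% of all tested probe sets, and none was higher (6.13%). With both directions 12.2% of probe sets passed, 503 higher and 497 lower, or 460 and 829 with arrays centred on their medians. An unadjusted p under 0.05 was found in 7 of the 22 genes and in 2441 of the 8199 probe sets. CG2065 differed by -0.51 (SE 0.13, adjusted p = 0.0154, limma) and kept this call whichever array was left out. CG10973 differed by -0.21 (SE 0.06, adjusted p = 0.0279, limma), with a lower mean in selected flies in all 9 conditions. The same held for CG12795, which was not called. The share of all probe sets with such a run was not counted, so nothing is read from it. The call of CG10973 was lost without nonselected replicate 2 at 8, 16, 32 or 64 h, selected 64 h replicate 1 or selected untreated replicate 2 (adjusted p up to 0.0562). CG5246 stood at 0.58 (SE 0.22, adjusted p = 0.0783) and CG12795 at -0.33 (SE 0.15, adjusted p = 0.139), and both passed with the replicate block (adjusted p = 0.0221 and 0.00459).

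For CG2065 the lines stood apart from 0.25 to 2 h. At 0.25 h nonselected flies stood at 6.76 and 6.91 and selected flies at 5.0 and 5.44. At 1 h the values were 7.51 and 7.66 against 6.44 and 6.70, and at 2 h 7.27 and 7.71 against 6.76 and 6.28. At 4 h they were 6.99 and 5.75 against 4.68 and 5.71, so the gap there lay in replicate 1. Untreated flies differed by -0.05, and at 8 to 64 h the differences ran from -0.07 to 0.14. Within each of the 3 early times the 2 lines, with 2 arrays each, did not overlap. The share of all probe sets with such a gap was not counted, so nothing is read from it. Averaged over these 3 times, selected flies differed by -1.20, a description of the values just given. The change from untreated to 0.25 to 2 h was 2.34 in nonselected and 1.19 in selected flies. That difference of changes, -1.15 (SE 0.45, interval -2.08 to -0.21), had an unadjusted p of 0.0185 and an adjusted p of 1.00 (limma).

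**Figure D4:**
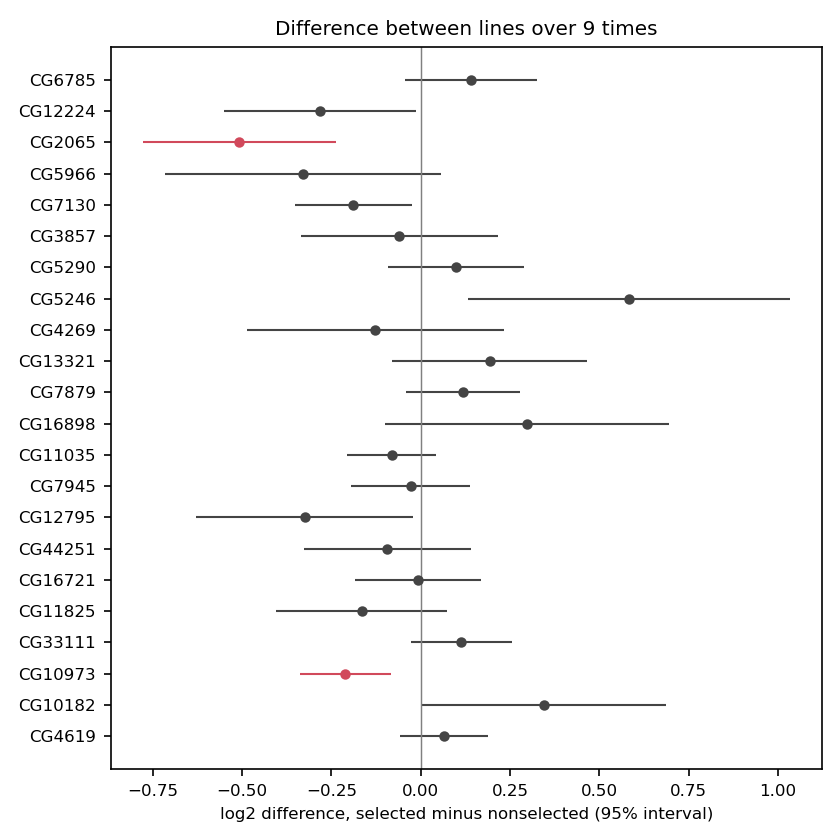
Log2 difference between selected and nonselected flies averaged over untreated flies and the 8 times (x axis) for each of the 22 genes (y axis), with the 95% interval of the limma fit. Red marks the genes past an adjusted p of 0.05, CG2065 at -0.51 and CG10973 at -0.21.

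The early change itself was compared between lines for all 22 genes. None passed, nor did any of the 8199 probe sets (0%, with 25 under an unadjusted p of 0.05), and CG2065 was the 1 gene of 22 under that unadjusted limit. The difference was above 0 in 14 of 22 genes, counting CG12795, which rounds to 0, and in 3319 of the 8199 probe sets. The medians were 0.10 and -0.03. Nothing is read from this direction, since no probe set passed. Intervals were wide, with a median half-width of 0.82 log2 units, so smaller differences were mostly not detectable in a single gene. CG12224 had early changes of 2.00 in nonselected and 1.91 in selected flies, CG7130 1.59 and 1.70, CG5966 1.69 and 1.63, and CG6785 1.90 and 2.13. CG10182 had 0.14 and 1.17, a difference of 1.03 (SE 0.57, interval -0.16 to 2.21, adjusted p = 1.00, limma). It met the rule through the selected line.

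**Figure D5:**
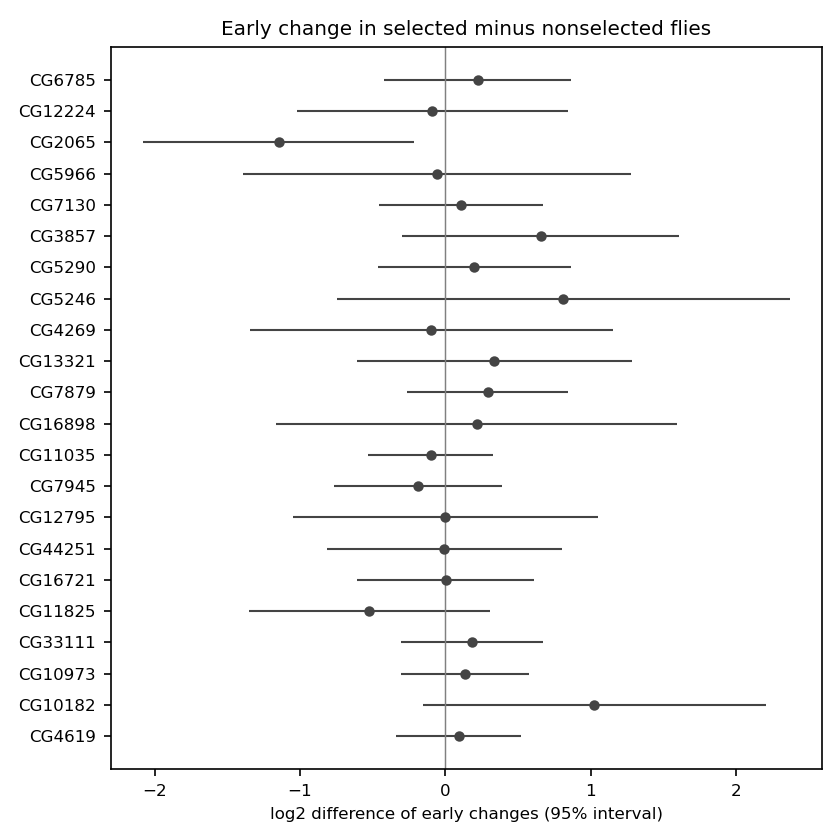
Difference between lines in the early log2 change, selected minus nonselected (x axis), for each of the 22 genes (y axis), with the 95% interval of the limma fit. No gene passed an adjusted p of 0.05, and the intervals of all genes but CG2065 include 0.

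Replicate numbers moved with the level of some members. CG12795 was higher in replicate 2 than in replicate 1 in 17 of 18 groups, by 0.57 ± 0.34 (SD over 18 groups). CG16898 was lower in replicate 2 in 16 of 18 groups (-0.69 ± 0.55), as was CG5966 (-0.60 ± 0.61). Each replicate number holds every line and time, and the part of such offsets in single values was not tested beyond the fit with a replicate block.

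The 22 genes were spread over chromosome arms 2L (3), 2R (6), 3L (5), 3R (5) and X (3). Of the 44 places directly beside them in the RefSeq order of protein-coding genes, 32 held a gene with a probe set of its own, and the median early change of these neighbours was 0.07. One of the 32 met the same numeric limits. It is unc-45, a chaperone for myosin, directly beside CG11035 on 3R. CG11035 stood at 5.58 untreated and 6.43, 6.68 and 6.4 at 0.25, 1 and 2 h, and unc-45 at 7.58 untreated and 8.98, 9.14 and 9.08. On 2L, Plzf, 2 places from CG6785, also met the limits (0.70 early and -0.51 late). On 2R, CG13321 and CG44251 are both members and lie 2 places apart, with CG44250 between them, which was not measured here. CG44251 had its highest mean at 0.25 h (6.60) and was at 5.58 by 4 h, while CG13321 had its highest at 1 h (10.96) and was at 10.33 ± 0.32 at 4 h (SD, n = 4).

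Named genes with the same early pattern were used as a yardstick. The 25 that met the numeric limits include the co-chaperone genes stv and DnaJ-1, Hsp27 and Hsp26, which encode small heat shock proteins, 6 glutathione S-transferase genes, ref(2)P, an adaptor of autophagy, and Sgt1, a co-chaperone of Hsp90. Their median early change was 0.87, against 0.99 for the 22 CG-numbered genes, and their median at 4 h was 0.64 against 0.40. None of the 25 passed in 2 h minus 0.25 h or 8 h minus 4 h (limma, 8 and 7 under an unadjusted p of 0.05), and 1, the immune adaptor gene imd, was lower in selected flies (-0.21, adjusted p = 0.0175, limma). Of the 7 measured heat shock and co-chaperone genes 4 met the limits, and Hsp68, at 5.61 early and 0.80 late, did not because of its late level. All 7 were lower at 2 h than at 0.25 h (median -0.35), and none passed (limma, 2 under an unadjusted p of 0.05). This difference was above 0 in 4480 of the 8199 tested probe sets. A further list held 22 measured genes, namely genes of glutathione metabolism, the Keap1 and cnc pair, maf-S and Cyp6a2. Of these 6 met the limits, and the median early change of the list was 0.22. None of 19 tested passed in 2 h minus 0.25 h (limma, 3 under an unadjusted p of 0.05), and over all conditions Cyp6a2 was higher (0.87, adjusted p = 0.0404) and GstD5 lower (-0.62, adjusted p = 0.0196) in selected flies (limma). None of the 8 clock genes met the limits. Of 7 tested clock genes, tim and vri rose from 0.25 to 2 h by 2.14 and 1.49 log2 units (adjusted p = 0.00282 and 0.0351, limma), and vri was higher in selected flies. In the comparison of lines 12.2% of all tested probe sets passed, so nothing is read from the line calls in these sets of genes.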

How the data were processed

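The authors deposited linear intensities. Per the submitters' processing notes these come from GCRMA, whose version is not given in the sources used here. Log2 was taken without a pseudocount. Array medians ran from 43.5 to 52.1, and no arrays were identical. Precision is limited by how many arrays there are. Of 12442 probe sets with 1 symbol, 12393 matched the RefSeq table of Release 6 plus ISO1 MT by Entrez identifier, including all 22 members, and the highest-mean probe set stood for a gene. No genome build of the arrays is given, so no coordinates are printed, and no promoter or protein sequence was used here. A single limma 3.58.1 fit (R 4.3.3) with 18 group means took in the 8199 probe sets whose 4 highest arrays averaged at least 5 (18 residual degrees of freedom). All 22 members passed this filter. CG6785, CG2065, CG4269 and CG10182 had untreated means under 5 and passed through the times when they are high. Adjusted p-values (Benjamini-Hochberg, per contrast) under 0.05 were called. The fit was tested on simulated data. Members, contrasts and lists were chosen with earlier results of these data known. Any member may be named; values are given in full mainly for the 10 largest early changes and for members that passed a test. Alternatives were a replicate block, other filters, a floor of 32, median centring, a trended robust fit, all probe sets of a member and each array left out.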

Additional observations from a re-analysis of the deposited data

Results flagged for a closer look

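Values at each time were screened for 1 of the 4 arrays standing far from the other 3, by the gap to the nearest array over the whole range. Of 198 sets of 4 arrays (22 genes at 9 conditions), 13 were marked, where chance marks about 1 in 20.

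Most marked arrays were nonselected replicate 1. They were CG12224 at 16 h (6.49 against 5.96 to 6.04), CG3857 untreated (7.26 against 6.29 to 6.4), CG5246 at 64 h (5.77 against 4.84 to 4.98) and CG11035 untreated (5.82 against 5.47 to 5.53). At 4 h they were CG4269 (5.25 against 4.29 to 4.42), CG44251 (6.24 against 5.27 to 5.42) and CG10182 (6.11 against 4.29 to 4.52). Nonselected replicate 2 was low for CG5246 at 4 h (5.30 against 6.98 to 7.21).

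In selected replicate 1, CG6785 stood at 4.20 at 16 h (others 3.5 to 3.58), CG12224 at 8.63 at 0.25 h (others 8.28 to 8.33), CG4269 at 4.60 at 0.25 h (others 3.75 to 3.87) and CG33111 at 6.52 untreated (others 6.35 each). In selected replicate 2, CG4619 stood at 7.86 at 2 h (others 7.63 to 7.66).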

How the results depend on the processing

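The number of genes meeting the rule stayed between 19 and 24 under all alternatives run. Among the 22 members the F-test over the early times gave 1 call, and 4 with a replicate block, 0 with the stricter filter (16 of 22 tested, which leaves out both called genes of the 2 h contrast), 2 with values floored at 32 (CG6785 and CG2065, while the call of CG4269 was lost) and 2 with median centring. The contrast of 2 h minus 0.25 h gave 2, and 5 with a replicate block and 0 with the stricter filter. The line difference gave 2, and 4 with a replicate block, 1 with the stricter filter and 1 over 0.25 to 2 h only, a window added after seeing the data. With 1 array left out the counts ran from 0 to 2, from 0 to 3 and from 1 to 3. The contrast of 8 h minus 4 h and the line by early heat interaction gave 0 in every alternative. No called gene changed sign. Over all probe sets, the replicate block took the calls of the F-test from 33 to 88, of 2 h minus 0.25 h from 42 to 126, of 8 h minus 4 h from 24 to 72 and of the line difference from 1000 to 2349. In that order the stricter filter gave 11, 20, 11 and 647, and leaving out 1 array gave 5 to 41, 14 to 48, 6 to 35 and 670 to 1564. The line calls of 503 higher and 497 lower became 460 and 829 with median centring and 866 and 1483 with the block. Replicate numbers are not stated to mark a shared batch. Differences between replicates correlated by more than 0.1 in 121 of 153 pairs of groups (r from -0.43 to 0.78). Signal near or under 32 limits CG6785, CG2065, CG4269 and CG10182. No promoter motif was searched, since no sequence was used here.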
